A study of Homo sapiens with 8 samples.

Results

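The peaks described here are those of dimethylated lysine 4 of histone H3 (H3K4me2) at the MYC gene family: MYC with its neighbour PVT1, MYCN and MYCL. The genes and intervals were set with earlier results of these data known, and the peaks were then taken by position alone. On the hg19 build the interval of MYC and PVT1 was chromosome 8 from 128 to 129.3 Mb. That of MYCN was chromosome 2 from 16.03 to 16.14 Mb, and that of MYCL chromosome 1 from 40.34 to 40.39 Mb. Every deposited peak that overlapped 1 of these 3 intervals was taken. This gave 127 of 280986 peaks in 6 lists, of which 100 of 178907 came from the lists of single libraries and 27 of 102079 from lists of pooled replicates. Library peaks sharing 1 bp or more were joined into regions, which gave 29 regions at MYC and PVT1, 4 at MYCN and 3 at MYCL, or 36 of 58952 in the genome.

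The authors mapped the mark in RD, a long-established cell line from a human rhabdomyosarcoma, by sequencing DNA precipitated with an antibody to H3K4me2 (ChIP-seq). Cells transfected with an siRNA against LSD1 (siLSD1, 2 replicates) were set against cells transfected with a control siRNA (siCtrl, 2 replicates), all harvested after 96 hours. LSD1, the product of KDM1A, is a demethylase that takes methyl groups off mono- and dimethylated lysine 4 of histone H3. A single siRNA construct was used against LSD1, the level of LSD1 was not measured by these lists, and the 4 input libraries were not analysed here.

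MYC, MYCN and MYCL are transcription factors that pair with MAX and bind E-box sequences of genes for growth, ribosome production and the cell cycle. PVT1, next to MYC, gives rise to a long noncoding RNA and hosts several microRNAs, among them MIR1204, and is often amplified together with MYC. H3K4me2 marks active or poised promoters and enhancers. In rhabdomyosarcoma, a cancer with features of skeletal muscle, MYC and MYCN are known oncogenes, and RD is reported to carry extra copies of MYC. Peak lists do not measure copy number, and its part in the results below was not tested.

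The library lists held 50587 and 49611 peaks after siLSD1 and 33878 and 44831 after siCtrl, and the pooled lists 56860 after siLSD1 and 45219 after siCtrl. The number of reads behind them is unknown, so more marked sequence and deeper sequencing cannot be told apart. Each peak carries the authors' own score, which has the form of a p-value on a logarithmic scale (higher for lower p) and is used here only to describe peaks within a list, since scores of different lists are not on a common scale. The score 3100 was shared by between 15 and 770 peaks in each library list, so 2 peaks at 3100 cannot be ranked. The files name no genes. In the MYC neighbourhood positions are counted from MIR1204 (Entrez gene 100302185, chr8:128808208-128808274, plus strand), and other genes are placed on the regions from general knowledge of the loci.

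The MYC gene itself lay under a strong peak in every library. In region chr8:128744852-128759806, which spans MYC, the peaks covered 7.90 and 15.0 kb in siLSD1 replicates 1 and 2, against 7.91 and 7.99 kb in siCtrl replicates 1 and 2. All 4 peaks had the score 3100. In siLSD1 replicate 1 the peak ran from 128745616 to 128753512, close to the siCtrl peaks at both ends, whereas in siLSD1 replicate 2 it ran on to 128759806. The groups overlapped, so the wider mean after siLSD1 (11.4 ± 4.99 kb, against 7.95 ± 0.0573 kb after siCtrl; SD, n = 2 each) came from 1 library. The authors' pooled peaks differed more, at 23.6 kb for pooled siLSD1 (score 1381), against 7.99 kb for pooled siCtrl (score 3100). The pooled siLSD1 peak began at 128736266, before the peak of any library.

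The start of PVT1, with MIR1204, was the widest marked region of the neighbourhood. Region chr8:128804320-128825399 was covered over 18.8 and 21.1 kb after siLSD1, against 18.5 and 18.8 kb after siCtrl. The groups overlapped, as siLSD1 replicate 1 and siCtrl replicate 2 had almost the same width. The highest score of its peaks was 1951 and 1086 in the siLSD1 lists and 613 and 2772 in the siCtrl lists. At 21.1 kb across, the region was wider than 99.98% of the 26653 regions marked in all 4 libraries. That width came from the single peak of siLSD1 replicate 2, whereas every other library had 2 separate peaks here. The second of these had a score of 1570 in siLSD1 replicate 1 and of 82.6 and 1438 in siCtrl replicates 1 and 2. The pooled lists did not match. The pooled siCtrl list covered 20.7 kb here in 2 peaks, the higher with a score of 3144. The pooled siLSD1 list had no peak, although both siLSD1 libraries were marked here.

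**Figure D1:**
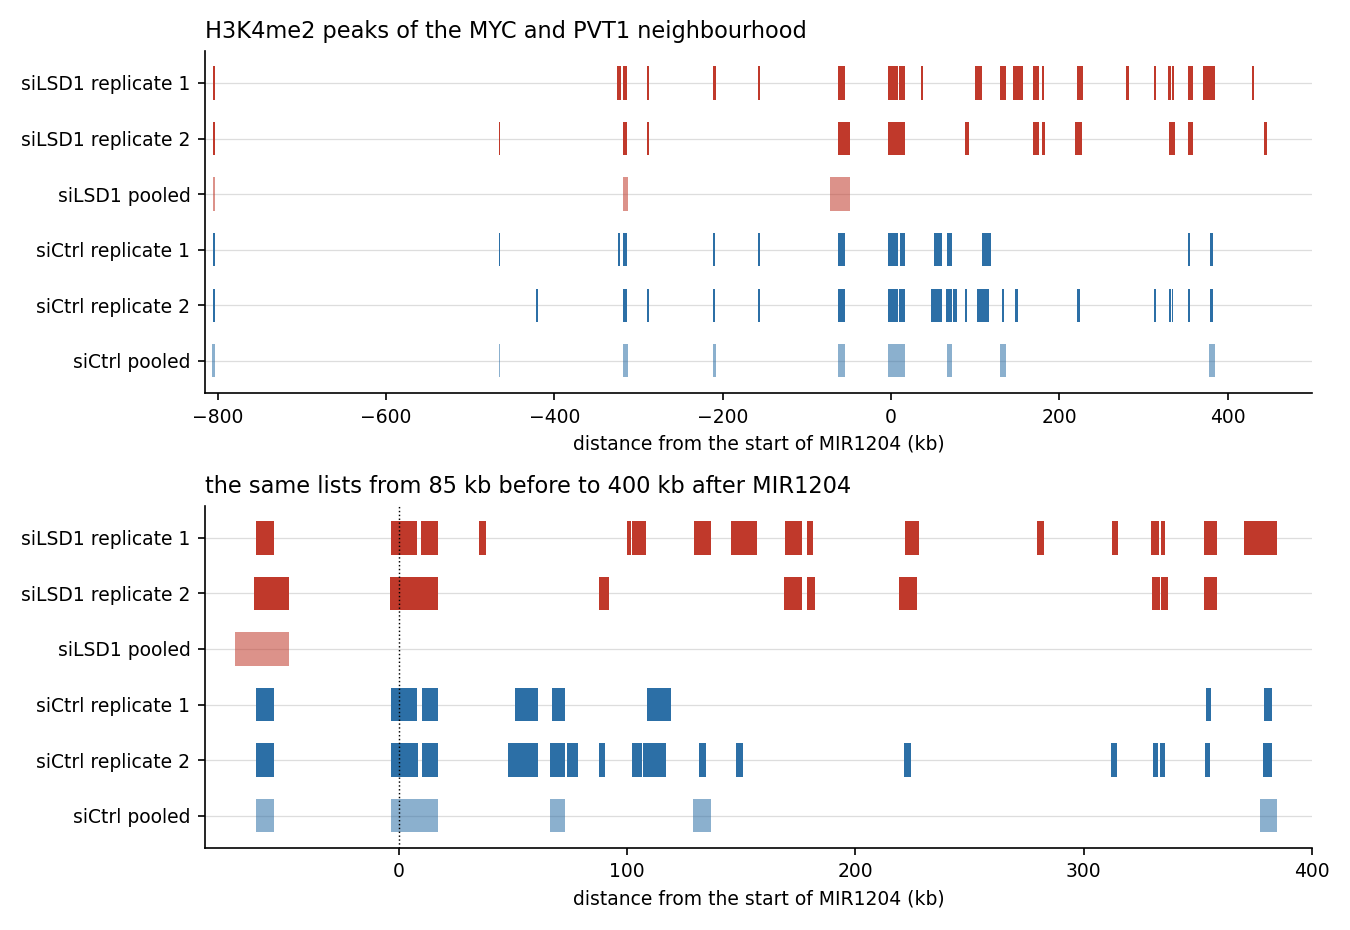
H3K4me2 peaks of the MYC and PVT1 neighbourhood in the 6 lists, drawn to scale against distance from the start of MIR1204 in kb (upper panel, the whole interval; lower panel, MYC to the far end of PVT1). Red rows are siLSD1 and blue rows siCtrl, with the pooled lists in paler colour; all 4 libraries carry the MYC peak and the MIR1204 peaks, whereas the pooled siLSD1 row is empty after MYC.

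Along PVT1 beyond its start, some regions had peaks in the libraries of 1 group only. Of the 29 regions, 2 were gained (a peak in both siLSD1 libraries and in neither siCtrl library), about the share of gained regions in the genome (6.97%), and 2 were lost (the reverse), against 1.04% of all regions. Both lost regions lay nearer the start of PVT1 than both gained ones. The pooled siLSD1 list had a peak in none of these 4, and the pooled siCtrl list in 1 of them, the second lost region below. Counts of this size rest on few peaks, and they depended on the peaks used. With the 33878 highest-scoring peaks of each list, 0 regions were gained and 1 was lost. With the upper 50% of each list by score 2 were gained and 0 lost, but these 2 were other regions. They were chr8:128489557-128494686 and chr8:129160905-129166802, marked in all 4 full lists, whose siCtrl peaks fell below the cut. The gained regions described below dropped out, as their scores in siLSD1 replicate 1 (94.6 and 75.3) were under the median of that list (178).

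The wider lost region, chr8:128856067-128869000, is centred 54.3 kb beyond MIR1204. It had no peak in siLSD1 replicates 1 and 2, against 9.70 and 12.9 kb under peaks with scores of 147 and 257 in siCtrl replicates 1 and 2. The other, chr8:128874155-128881062, had no peak after siLSD1, against 5.68 and 6.84 kb with scores of 50.6 and 50.2 after siCtrl. The second pair of scores lies at the floor of the lists, whose lowest score is 50. The first pair is above the floor but under the medians of its lists, higher than 43.9% and 48.2% of their scores. Another stretch, chr8:128910167-128927263, was covered over 6.17 and 0 kb after siLSD1, against 10.4 and 14.5 kb after siCtrl, with scores of 1037 in siLSD1 replicate 1 and of 829 and 1132 in the siCtrl libraries. It was not lost by the rule, since siLSD1 replicate 1 had a peak in it, from 128910167 to 128916333. That peak did not overlap the siCtrl replicate 1 peak, from 128916881 to 128927263, and both were joined only through the peaks of siCtrl replicate 2. Both siLSD1 values were below both siCtrl values.

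The wider gained region, chr8:128977073-128984661, is centred 172.7 kb beyond MIR1204. It was covered over 7.33 and 7.59 kb with scores of 94.6 and 338 after siLSD1, and had no peak in either siCtrl library. Next to it, chr8:128987083-128990664 was covered over 2.51 and 3.58 kb with scores of 75.3 and 60.7 after siLSD1, again with no siCtrl peak. These scores were near the floor, above only 17.6% and 7.96% of the scores in their lists. Region chr8:129027355-129036105 was covered over 6.35 and 7.79 kb after siLSD1, against 0 and 3.19 kb after siCtrl. Both siLSD1 peaks were wider than the siCtrl peak there, which 1 siCtrl library lacked. In score they were not both the stronger. The siLSD1 peaks had scores of 356 and 80.8, higher than 72.7% and 18.5% of the scores in their lists. The siCtrl replicate 2 peak had 642, higher than 68.7%.

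Of the 29 regions, 5 were marked in all 4 libraries (17.2%, against 45.2% of all regions of the genome). Among these 5, 3 were broader (both siLSD1 values above both siCtrl values), against 30.3% of all common regions, and none was narrower, against 9.62%, and MYC and the start of PVT1 overlapped between the groups. The region that differed most, chr8:129160905-129166802, lies 356 kb beyond MIR1204 and was covered over 5.69 and 5.90 kb after siLSD1, against 2.23 and 2.25 kb after siCtrl. The siLSD1 peaks were thus wider than both siCtrl peaks. Before MYC, chr8:128489557-128494686 had 4.47 and 5.13 kb after siLSD1 and 4.16 and 4.08 kb after siCtrl. The third, chr8:128002193-128005016, had 2.63 and 2.41 kb after siLSD1 and 1.63 and 2.37 kb after siCtrl, and was picked out after its values were seen. Of 3 further wide regions, 2 varied as much within a group as between the groups. Region chr8:129178493-129192846 had 14.4 and 0 kb after siLSD1, against 3.61 and 3.83 kb after siCtrl. Region chr8:128953721-128965015 had 11.3 and 0 kb after siLSD1, against 0 and 2.85 kb after siCtrl. In chr8:129137657-129145427 both siLSD1 values were the higher, with 5.53 and 7.02 kb after siLSD1, against 0 and 4.43 kb after siCtrl. The regions of the neighbourhood not described so far were each covered over 1.51 to 7.66 kb where a library had a peak, and 7 of them had a peak in 1 library only.

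Windows of 10 kb were also compared across the genome, by the kb under peaks in each library with limma. Of 43372 windows tested, 0 (0%) passed a Benjamini-Hochberg adjusted p of 0.05, and the lowest adjusted p, also among the 38 windows of these loci, was 0.129. At an unadjusted p under 0.05, 5 of the 38 windows were higher after siLSD1 (12.4% of all windows) and 4 were lower (1.94% of all windows). Of these, 2 of the higher ones had no siCtrl peak and 3 of the lower ones no siLSD1 peak. Such a window entered the test only through the group in which it was marked and had to differ in that direction, so its p and these counts support nothing. The window from 128.86 Mb, in the wider lost region, had 0 and 0 kb after siLSD1, against 8.94 and 9.0 kb after siCtrl, a difference of -8.97 kb. The window from 128.98 Mb, in the wider gained region, had 7.15 and 7.58 kb after siLSD1, against 0 and 0 kb after siCtrl, a difference of 7.37 kb. The windows from 128.92 and 128.87 Mb, also without a siLSD1 peak, differed by -6.15 and -5.23 kb. After quantile normalization limma called 9 windows (0.0208%) at a Benjamini-Hochberg adjusted p under 0.05, of which 3 lay in PVT1, those from 128.86, 128.98 and 128.87 Mb. All 3 are windows with no peak in 1 of the groups, and without that scaling none was called.

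**Figure D2:**
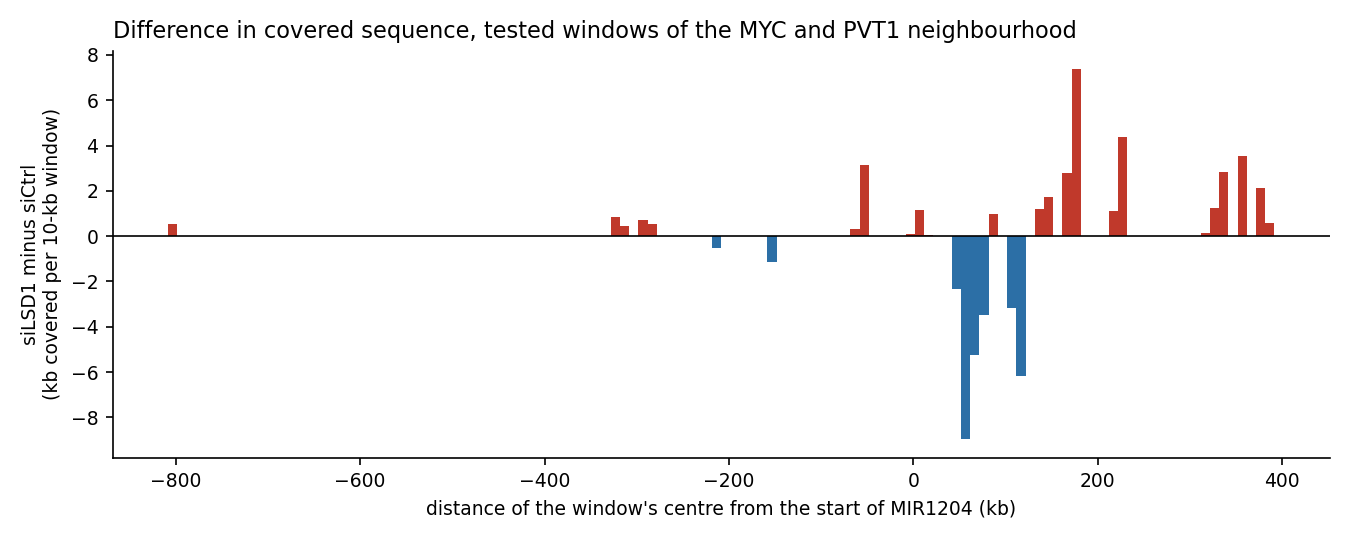
Difference in sequence under peaks per 10-kb window, mean of the 2 siLSD1 libraries minus mean of the 2 siCtrl libraries in kb, against distance of the window's centre from the start of MIR1204 in kb, for the 32 tested windows of the MYC and PVT1 neighbourhood. Red bars are windows higher after siLSD1 and blue bars windows lower; the deepest blue bar, -8.97 kb, and the highest red bar, 7.37 kb, both lie within PVT1.

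Summed over the whole neighbourhood, the groups were not separated. Peaks covered 126 and 87.2 kb in siLSD1 replicates 1 and 2, against 72.9 and 105 kb in siCtrl replicates 1 and 2. The means were 106 ± 27.3 kb after siLSD1 and 88.7 ± 22.5 kb after siCtrl (SD, n = 2 each), and the difference of 17.75 kb was smaller than the spread within either group (two-sided exact permutation p 0.667, where 2 against 2 allows no p below 0.333). Divided by each list's covered length, the difference turned to -0.85 kb per 100 Mb. Without siLSD1 replicate 1, which had the most covered sequence, it was -1.55 kb, and without siCtrl replicate 1, which had the least, 1.87 kb. All 4 libraries marked the neighbourhood densely: among 2325 tiles of 1.3 Mb, 94.6% and 84.7% held less covered sequence in the siLSD1 libraries, and 89.4% and 93.0% in the siCtrl libraries.

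Replicates were less alike here than elsewhere. The siLSD1 libraries shared 40.3% of their joint covered length in the neighbourhood, against 69.9% over the genome, and the siCtrl libraries shared 57.8%, against 66.3%. Pairs across the groups shared between 29.2% and 40.03%, against 57.8% to 68.8% over the genome. Sequence under a peak in all 4 libraries made up 17.8% of the marked 189 kb (genome 45.7%), sequence marked in 1 library only 39.1% (genome 23.2%), sequence marked in both siLSD1 libraries alone 8.99% (genome 6.95%) and sequence marked in both siCtrl libraries alone 12.4% (genome 1.41%). The peaks were also wide for their score. Peaks over 5 kb made up 41.7% and 42.9% of those here in the siLSD1 libraries and 42.9% and 26.1% in the siCtrl libraries, against 2.64% and 3.92% and against 2.89% and 3.82% of the same whole lists. Their median score was 395 and 311 in the siLSD1 libraries and 380 and 1285 in the siCtrl libraries, below the 1171 and 1415 and the 892 and 2177 of all peaks over 5 kb in the same lists. These numbers were not tested.

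**Figure D3:**
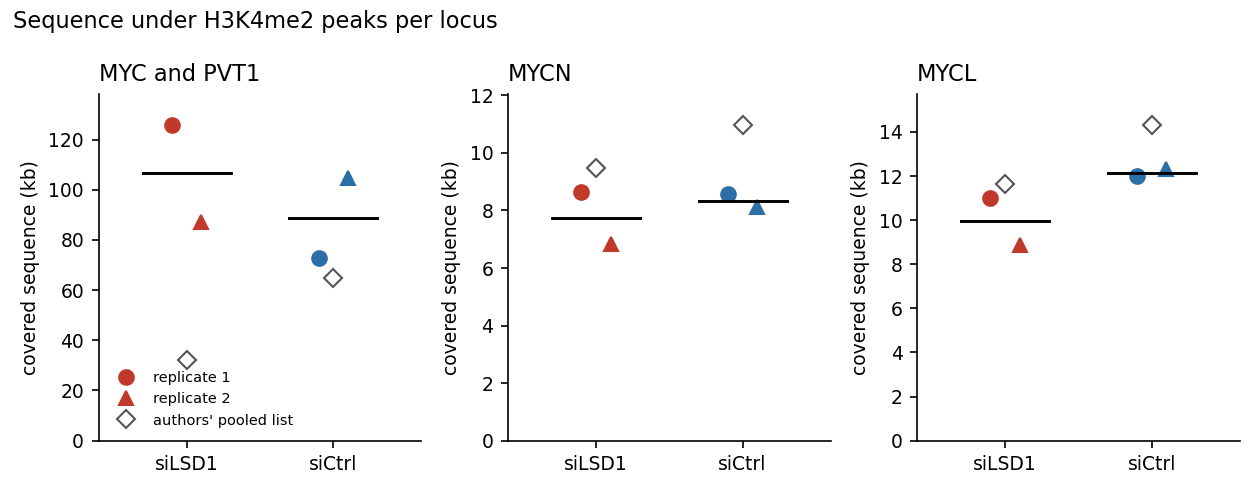
Sequence under H3K4me2 peaks in kb at each locus, siLSD1 left and siCtrl right, with a circle for replicate 1, a triangle for replicate 2, a bar at their mean and an open diamond for the authors' pooled list; each vertical axis starts at 0. The libraries of the groups overlap at MYC and PVT1 and at MYCN, and not at MYCL, and the pooled lists lie below every library at MYC and PVT1.

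The authors' pooled lists carried far less of the MYC and PVT1 neighbourhood than their libraries. The pooled siLSD1 list had 3 peaks over 32.3 kb, against 24 and 14 peaks in its libraries, and the pooled siCtrl list had 10 peaks over 64.8 kb, against 14 and 23 in its libraries. Of the 29 library regions, 26 lacked a pooled siLSD1 peak (89.7%, against 11.2% of all regions) and 20 lacked a pooled siCtrl peak (69.0%, against 26.3%). The same 20 had a peak in neither pooled list, against 6.27% of all regions. Among regions marked in all 4 libraries, 2 of 5 were missing from the pooled siLSD1 list, the start of PVT1 and chr8:129160905-129166802, against 0.169% of all common regions. From the pooled siCtrl list 1 of 5 was missing, chr8:129160905-129166802, against 0.12%. Among the 45 common regions that the pooled siLSD1 list lacked, the start of PVT1 was the second widest as a joined region.

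The pooled lists therefore show a difference at the start of PVT1 that the libraries do not. None of the 3 pooled siLSD1 peaks of the neighbourhood stood alone, against 27.0% of that whole list, while 7 of the 10 pooled siCtrl peaks overlapped no pooled siLSD1 peak, against 8.86% of that whole list. Those 7 include both peaks at the start of PVT1, where the libraries of both groups had peaks. The absence was not limited to PVT1. In the 3 consecutive 1-Mb bins from 128 to 131 Mb, 85.7%, 75% and 71.4% of regions had no pooled siLSD1 peak, and 61.9%, 75% and 64.3% had no pooled siCtrl peak. In the next bins on either side the shares were 41.7% and 20.8% for siLSD1 and 25% and 43.4% for siCtrl. Further out, the siCtrl share was 54.5% and 50% in bins before and 55.6% in a bin after, not far below 61.9%. The other bins further out had siCtrl shares between 14.3% and 38.7%. Outside the 3 bins no siLSD1 share shown was above 41.7%. In the bins shown before them the siLSD1 shares lay between 18.2% and 41.7%, each above the 11.2% of all regions. In the bins shown after them they lay between 0% and 20.8%. The shares over all regions differ between the lists (11.2% for siLSD1 and 26.3% for siCtrl), so these percentages do not tell which gap was the more local. All 6 common regions of chromosome 8 that the pooled siLSD1 list lacked lay between 128804320 and 131031143, a range picked out after the values were seen. The rest of the 45 such regions lay on other chromosomes. Among these, 4 lay close together on chromosome 19, between 1235602 and 1277522, also picked out after the values were seen. No source used here says how pooling was done, and its part in the gap on chromosome 8 was not tested.

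**Figure D4:**
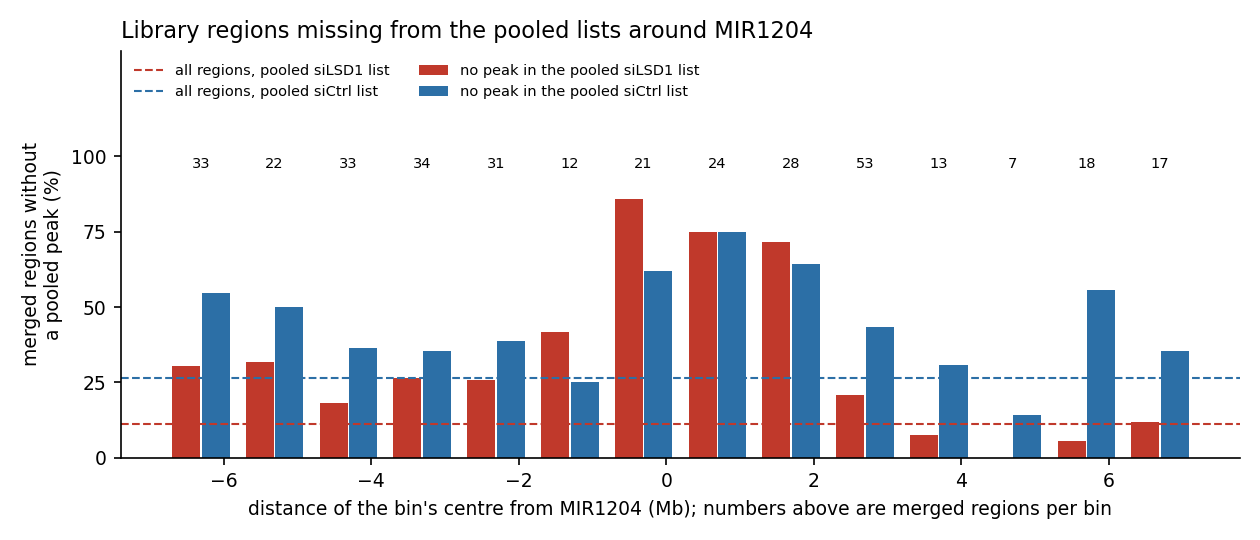
Share of the merged library regions that have no peak in the authors' pooled lists, in percent, per 1-Mb bin against the distance of the bin's centre from MIR1204 in Mb; red bars stand for the pooled siLSD1 list, blue bars for the pooled siCtrl list, and dashed lines give the share over all regions. The 3 bins from 128 to 131 Mb stand highest, between 61.9% and 85.7%, against 11.2% (siLSD1) and 26.3% (siCtrl) of all regions. Outside these 3 bins the share reaches at most 41.7% for siLSD1 and 55.6% for siCtrl.

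At MYCN, the family member named for neuroblastoma, where it is often amplified, the peak of the gene had nearly the same width in every library. This strong peak lay over the start of MYCN in region chr2:16079180-16084982. It covered 5.26 and 5.44 kb with scores of 3177 and 2691 after siLSD1, against 5.59 and 5.70 kb with scores of 1788 and 3100 after siCtrl. Both siLSD1 peaks were narrower than both siCtrl peaks, by 0.295 kb on average. The pooled peaks were alike, at 5.76 kb after siLSD1 and 5.85 kb after siCtrl, both with the score 3100. Upstream, chr2:16051491-16053185 was covered over 1.37 and 1.41 kb after siLSD1 and over 1.28 and 1.70 kb after siCtrl, which overlapped. The remaining 2 regions were each found in 1 library of each group. Region chr2:16029131-16030714 had 0.985 and 0 kb after siLSD1 and 0 and 1.58 kb after siCtrl, and chr2:16054067-16055991 had 1.57 and 0 kb after siLSD1 and 1.69 and 0 kb after siCtrl. In total 8.65 and 6.85 kb of the interval were covered after siLSD1, against 8.56 and 8.11 kb after siCtrl (7.75 ± 1.27 kb against 8.34 ± 0.317 kb; SD, n = 2 each). The difference of -0.58 kb was within the spread of the siLSD1 libraries (two-sided exact permutation p 1), and it was 0.316 kb without siLSD1 replicate 2. None of the 4 regions was gained or lost, and each had a peak in both pooled lists.

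The sequence just before the start of MYCN is shown because the strong peak lies over that start in every library. It is the RefSeq promoter of GRCh38.p14, 250 bases on the plus strand of chromosome 2, and since the peaks are on hg19 it is not placed within them. Sequences were matched by symbol for MYCN and MYCL, or 2 of the 4 genes. Capitals mark 2 overlapping matches, on opposite strands, to words bound by the E2F cell cycle factors (TTTCCCGC, TTTCGCGC, TTTGCCGC or TTTGGCGC, searched on both strands), which 2.79% of 35116 promoters hold.
MYCN promoter: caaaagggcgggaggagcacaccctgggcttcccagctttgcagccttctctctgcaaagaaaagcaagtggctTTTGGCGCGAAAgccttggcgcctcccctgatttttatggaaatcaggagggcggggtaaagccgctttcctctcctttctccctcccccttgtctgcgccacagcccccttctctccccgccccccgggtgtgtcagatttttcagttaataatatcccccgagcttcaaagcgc
The GC content was 57.2%, near the median of 58% over all promoters. There were 11 CpG, which is also the median. The E-box of MYC and MAX, CACGTG, was not in this window (6.34% of promoters hold it), and neither was TATAAA (10.7%). The GC box GGGCGG was found 3 times on either strand (42.6% of promoters hold it).

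At MYCL, named for its discovery in lung cancer, the peak of the gene was narrower in both siLSD1 libraries. Region chr1:40361079-40368930, which spans MYCL, was covered over 5.65 and 3.57 kb after siLSD1, against 7.73 and 7.18 kb after siCtrl. Both siLSD1 libraries lay below both siCtrl libraries (4.61 ± 1.47 kb against 7.46 ± 0.39 kb; SD, n = 2 each), and the difference of -2.84 kb was the eleventh most negative of the 26653 regions marked in all 4 libraries. That rank is by kb, which favours wide regions, and this region was wider than 97.7% of them. The difference was -1.80 kb without siLSD1 replicate 2, which had no second peak there. In both siCtrl libraries a single peak ran over the whole region, from 40361079 to 40368809 and from 40361536 to 40368714. After siLSD1 the main peak ran only from 40365301 to 40368930 in replicate 1 and from 40365293 to 40368862 in replicate 2. MYCL lies on the minus strand, so the part that both siLSD1 libraries kept is the one at its start, and the part left uncovered, or covered only in part, is the body and far end of the gene. Replicate 1 of siLSD1 had a second, weak peak of 2.02 kb in that part, with a score of 93.6, and replicate 2 had none. The main peak had a score of 1986 and 2359 in the siLSD1 lists and of 503 and 3100 in the siCtrl lists. The pooled lists differed in the same direction, with a peak of 4.35 kb after siLSD1 and of 8.36 kb after siCtrl. In the 10-kb window from 40.36 Mb, limma gave an unadjusted p of 0.0427 and a Benjamini-Hochberg adjusted p of 0.316, so the narrowing did not pass the test across the genome.

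**Figure D5:**
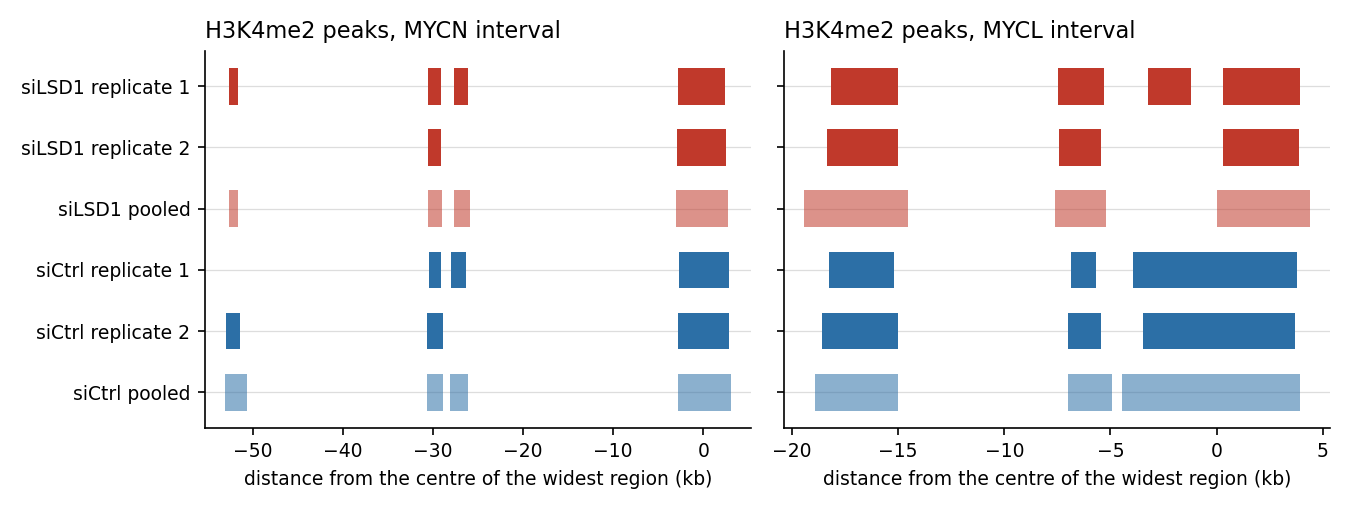
H3K4me2 peaks of the MYCN interval (left) and the MYCL interval (right) in the 6 lists, drawn to scale against distance from the centre of the widest region in kb; red rows are siLSD1, blue rows siCtrl, and the pooled lists are paler. The MYCN peak has nearly the same width in every row, whereas the MYCL peak is 3.63 and 3.57 kb wide in the siLSD1 libraries and 7.73 and 7.18 kb in the siCtrl libraries.

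The neighbouring region, chr1:40357512-40359681, lies just past the far end of MYCL and went the other way. It was covered over 2.17 and 2.0 kb after siLSD1, against 1.22 and 1.56 kb after siCtrl, so the siLSD1 peaks were the broader. At chr1:40346420-40350011, where the tRNA-modifying enzyme gene TRIT1 starts, coverage was 3.18 and 3.32 kb after siLSD1 and 3.05 and 3.57 kb after siCtrl, and the groups overlapped. Over the whole interval 11 and 8.89 kb were covered after siLSD1, against 11.999 and 12.314 kb after siCtrl. The means were 9.95 ± 1.49 kb after siLSD1 and 12.2 ± 0.223 kb after siCtrl (SD, n = 2 each), and the difference of -2.21 kb reached the smallest p that 2 against 2 can give (two-sided exact permutation p 0.333). It was -1.16 kb without siLSD1 replicate 2, the library with the least covered sequence. All 3 regions were marked in every library and in both pooled lists, none being gained or lost.

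The sequence just before the start of MYCL is shown because the part of the region at that start is the one that all 4 libraries cover. It is the RefSeq promoter of GRCh38.p14, 250 bases on the minus strand of chromosome 1. Capitals mark the only match to the general E-box CANNTG, a wide class of words bound by helix-loop-helix factors, which 61.8% of promoters hold. The marked word is CACCTG, not the CACGTG of MYC and MAX. The MYCN sequence also held 1 match to CANNTG, not marked there.
MYCL promoter: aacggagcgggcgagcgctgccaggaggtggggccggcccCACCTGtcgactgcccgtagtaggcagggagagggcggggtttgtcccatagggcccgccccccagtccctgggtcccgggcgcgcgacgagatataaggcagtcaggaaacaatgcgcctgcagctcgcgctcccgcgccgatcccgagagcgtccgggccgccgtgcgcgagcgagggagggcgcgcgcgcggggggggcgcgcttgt
The GC content of 74.4% was higher than in 88.4% of promoters, and its 35 CpG were more than 94.2% of promoters have. The GC box spelt out for MYCN was found 2 times on either strand. The E-box of MYC and MAX, the TATA word and the E2F words searched at MYCN were not in this window.

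Over the 3 loci, 10 of 36 regions (27.8%) were marked in all 4 libraries, against 45.2% of all regions of the genome. Of these 10, 4 were broader after siLSD1, with no overlap between the groups, against 30.3% of all common regions. Another 2 were narrower, against 9.62% of all common regions, and such counts rest on few regions. The narrower ones were the regions at MYCN and at MYCL, and the region at MYC and that at the start of PVT1 overlapped between the groups. The count of broader regions depended on the peaks used, with 0 among the upper 50% of each list by score and 2 among the 33878 highest-scoring peaks, whereas 2 regions were narrower under both settings.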

How the data were processed

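H3K4me2 ChIP-seq peak lists of 4 libraries, siLSD1 and siCtrl with 2 replicates each, and of the pooled replicates were used. The authors' reads were aligned with Bowtie to hg19, per the submitters' processing notes. Peaks are named after MACS in the files, and no source used here gives its version, settings or control. The deposited columns are positions and the authors' score, at least 50 for every peak. The lists give no read depth. Peaks outside chromosomes 1 to 22 and X were left out (3 to 26 per library list, 85 and 78 in the pooled lists).

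The genes, intervals and regions were chosen with earlier results of these data known. Per library, the kb of each interval under peaks were compared by an exact permutation test. Windows of 10 kb, kept where 2 or more libraries had 0.5 kb or more covered, were fitted over the whole genome in R 4.3.3 with limma 3.58.1, using its trend and robust options (statmod 1.5.0). Gained, lost, broader and narrower regions are counts, set beside the share of all regions. Regions named are every region at MYCN and MYCL, the 12 of highest mean covered length at MYC and PVT1, the gained and lost ones, and that of MIR1204; exceptions are said to be such. MIR1204 came from the hg19 gene table shipped with GenomicFeatures 1.54.1. No other hg19 annotation was used, so partner genes of the MYC network were not counted. RefSeq tables of GRCh38.p14 gave gene names and promoters only. Counting and plotting used scipy 1.17.1, pandas 2.3.3, matplotlib 3.10.9 and numpy 2.4.6 under Python 3.11.15. Alternatives were other peak sets, list lengths, scaling, overlaps, gaps, window sizes, a replicate block and leaving out each library. Leaving out libraries from counts of broader and narrower regions, and all alternatives for the MYCL region, were added after the data were seen.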

Additional observations from a re-analysis of the deposited data

How the results depend on the processing

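The difference in covered sequence at MYC and PVT1 (17.75 kb) reversed to -0.85 kb per 100 Mb when divided by the covered length of each list, and ranged from -1.55 kb (without siLSD1 replicate 1) to 37.0 kb when single libraries were left out. At MYCN that range was -1.49 to 0.316 kb, and at MYCL -3.27 to -1.16 kb. Gained regions at MYC and PVT1 numbered 0 with lists of equal length and 2 to 6 when single libraries were left out, against 2 with all lists. Lost regions numbered 0 with the upper 50% of each list, 1 with lists of equal length and 2 to 6 when single libraries were left out, against 2. They numbered 3 where joined peaks had to share 50% of the shorter peak. Leaving out a library makes the rule for its group looser. Broader regions of the 3 loci numbered 0 with the upper 50%, 2 with equal length and 6 to 7 when single libraries were left out, against 4, and narrower ones 2 to 5 in that last case, against 2. Quantile normalization gave 9 limma calls in the genome and 3 in the loci, against 0. The cause of these shifts was not tested beyond the construction of each setting. The difference in the region at MYCL was -3.89 to -1.80 kb under the 6 settings run for it.

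Libraries of the same replicate number deviated together with a correlation of 0.15 over 43372 windows, with 2 pairs and no label that ties the numbers to a shared batch. With a replicate block the kb differences had p 1 at MYC and PVT1, p 1 at MYCN and p 0.5 at MYCL (exact sign permutation). With 2 pairs this permutation allows no p below 0.5. In the same setting limma called 0 windows, with a lowest adjusted p of 0.176. Over the other settings the lowest adjusted p was between 0.018 and 0.842; where a group had 1 library left, limma assumed it to vary like the other group. Recomputed differences were judged by sign alone, and 3 reversed. Counts and shares were judged by size, and 16 changed by over 1.5 times or to or from 0. The other 81 values kept to the rule used for them. Differences among these could still change by over 1.5 times. At MYC and PVT1 17.75 kb became 1.87 kb without siCtrl replicate 1 and 37.0 kb without siLSD1 replicate 2. Depth is unknown, so a region without a peak may hold the mark below the calling threshold.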
